A study of Mus musculus with 20 samples.

Results

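The genes described here were 7 that are used to follow neural crest derivatives in the heart: Sox10, Foxd3, Fabp7, Erbb3, Ret, Ednrb and Ache. They were listed by name, with earlier results of these data known, and are 7 of the 48795 genes in the deposited table. Expression was measured by RNA sequencing of 20 whole mouse hearts at embryonic stage E13.5, 5 in each of 4 groups. Dp3Tyb hearts carry a duplication of a segment of mouse chromosome 16, Dp(16Mir802-Zbtb21), and were compared with their own wild-type (WT) controls, labelled wt_d. Ts1Rhr hearts carry a shorter duplication in the same region, Dp(16Cbr1-Fam3b), and were compared with their own WT controls, labelled wt_t. The study states that mutants and their controls were littermates. Both strains are models of Down syndrome on a C57BL/6J background, with the extra copies present in every cell. The study describes congenital heart defects in Dp3Tyb embryos and none in Ts1Rhr embryos, whereas Ts1Rhr replicates 1 and 2 are described with defects and replicates 3 to 5 without. None of the 7 genes lies on chromosome 16, so none is in a duplicated segment.

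Neural crest cells leave the dorsal neural tube, migrate into the outflow tract and along nerves, and in the heart give rise to smooth muscle, parasympathetic ganglion neurons and the Schwann cells that ensheath nerve fibres. SOX10 and FOXD3 are transcription factors of crest cells and their glial descendants, and FABP7 is a fatty acid binding protein of Schwann cell precursors. ERBB3, RET and EDNRB are receptors through which these cells read neuregulin, GDNF family ligands and endothelins, and acetylcholinesterase, the product of Ache, breaks down the transmitter of parasympathetic neurons. A whole heart is mostly muscle, endothelium, epicardium and blood, so these transcripts are a small share of the library, and fewer cells of a type cannot be told apart from less RNA per cell.

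Library depth ranged from 6.60 M reads (wt_d replicate 5) to 19.6 M, and the deposited values are normalised read counts. Mitochondrial transcripts took 4.85% to 19.5% of a library, with 13 libraries at or below 7.17% and 7 at or above 10.5%: wt_d replicate 5, Dp3Tyb replicate 5, wt_t replicates 1, 2 and 4 and Ts1Rhr replicates 1 and 2. The libraries also differed in 13 markers of lung and foregut epithelium, tissue that adjoins the heart, whose summed level ran from 393 to 1410. A score from those markers, their mean log2 value centred on the 20 hearts and leaving out Sox2, lay between -2.60 and -2.38 in wt_d replicates 2, 4 and 5 and Ts1Rhr replicates 1 and 3, and between -0.59 and 1.99 in the other 15 hearts. Bmp4, among the 13 markers, held most of the lowest sums: 367 of 393 in Ts1Rhr replicate 3 and 373 of 400 in wt_d replicate 4. The sum therefore understates how far the other markers ranged, as Cdh1 did from 0 to 216. The 10 cardiomyocyte markers summed to between 315097 and 539750 in every heart, far above the sums of any other marker list but the erythroid, which ran from 35599 to 245352.

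In the RefSeq table of GRCm38.p6, the build of the submitters' notes, Sox10 lies on chromosome 15 (79154913 to 79164490), Foxd3 on chromosome 4 (99656299 to 99658671), Fabp7 on chromosome 10 (57784923 to 57788450), Erbb3 on chromosome 10 (128567523 to 128589635), Ret on chromosome 6 (118151748 to 118197744), Ednrb on chromosome 14 (103814615 to 103844508) and Ache on chromosome 5 (137288247 to 137294466). Start-site windows were at hand for Fabp7, Ednrb, Foxd3 and Ache, and those of Ache and Ednrb use a start site inside these gene bounds rather than at their edge. The 250 bases before the start site are shown for Fabp7 and Foxd3, which moved together from heart to heart, and for Ache, which stood apart from them, on the strand of the gene (plus for all of them), with CpG dinucleotides in capitals:
Fabp7, chr10:57784673-57784922: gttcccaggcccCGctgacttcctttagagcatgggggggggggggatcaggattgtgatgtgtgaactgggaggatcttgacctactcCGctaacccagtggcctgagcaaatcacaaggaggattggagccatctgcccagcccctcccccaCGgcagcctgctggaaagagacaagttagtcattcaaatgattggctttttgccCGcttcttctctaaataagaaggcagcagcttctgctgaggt
Foxd3, chr4:99656049-99656298: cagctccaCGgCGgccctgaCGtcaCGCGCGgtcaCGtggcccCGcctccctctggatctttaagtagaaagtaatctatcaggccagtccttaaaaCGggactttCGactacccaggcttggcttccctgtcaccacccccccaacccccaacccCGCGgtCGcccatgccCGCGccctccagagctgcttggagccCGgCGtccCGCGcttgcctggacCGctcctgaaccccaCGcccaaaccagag
Ache, chr5:137288004-137288253: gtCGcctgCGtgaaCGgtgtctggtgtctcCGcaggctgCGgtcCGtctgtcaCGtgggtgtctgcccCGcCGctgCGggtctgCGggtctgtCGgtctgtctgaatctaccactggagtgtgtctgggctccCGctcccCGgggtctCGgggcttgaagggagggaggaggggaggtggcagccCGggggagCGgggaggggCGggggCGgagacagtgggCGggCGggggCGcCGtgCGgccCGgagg
The windows differed in CpG content. That of Fabp7 held 4 CpG dinucleotides, a number that 62.2% of the 32851 windows of this length reached, that of Foxd3 held 21 (reached by 16.4%) and that of Ache held 25 (reached by 10.7%), against a median of 6. The window of Ednrb, not shown, held 11 (reached by 35.6%). The words ACAAAG and ACAATG (cores bound by SOX factors) and CAGCTG (an E-box, which reads the same on either strand) were searched on both strands of the 300-base windows that run to 50 bases past the start. None was found in the 4 windows, which says only that these letters are not there. The words were present in 18.7%, 12.6% and 16.3% of all 32851 windows, respectively.

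The first question is how much of each transcript a heart at this stage holds. Per kilobase of exon, the mean normalised read count over 20 hearts was 659 for Ednrb, 56.3 for Erbb3, 34.4 for Ache, 14.0 for Fabp7, 11.0 for Sox10, 4.32 for Ret and 1.78 for Foxd3. Ednrb stood above Erbb3 with no overlap of their ranges per kilobase (519 to 959 against 41.0 to 78.4), and every other pair of neighbours in this order overlapped. Within single hearts the order was steadier: Erbb3 was above Ache in 20 of 20 hearts, Ache above Fabp7 in 18, Fabp7 above Sox10 in 15, Sox10 above Ret in 19 and Ret above Foxd3 in 20. Foxd3 rested on 0 to 17 reads per library and was at 0 in 3 hearts.

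The receptors' partners were present at their own levels. Erbb2, the kinase that signals in a dimer with ERBB3, had a mean of 340 normalised read counts per kilobase and Nrg1, the ligand neuregulin 1, had 11.0. Ednra, the other endothelin receptor, stood at 146 per kilobase, Edn1 at 55.6 and Edn3, the ligand that acts through EDNRB in crest cells, at 4.08. Of the GDNF co-receptors, which present ligands to RET, Gfra1 stood at 59.5 per kilobase, Gfra2 (the neurturin receptor) at 37.4 and Gfra3 at 2.47. The ligand genes Nrtn and Gdnf stood at 20.7 and 4.04 per kilobase. Bche, the related butyrylcholinesterase, was at 231 per kilobase, above Ache, whereas Chat, which makes acetylcholine, had no read in 14 of 20 hearts. Prph, a marker of peripheral neurons, stood at 6.07 per kilobase.

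Sox10, Foxd3, Fabp7 and Ret differed far more between hearts of a group than most genes did, whereas Erbb3, Ednrb and Ache lay nearer the median gene. Sox10, the crest and glial transcription factor, read 76.5, 13.7, 44.1, 20.9 and 2.94 normalised read counts in wt_d replicates 1 to 5 and 18.7, 21.9, 31.4, 64.4 and 43.4 in Dp3Tyb. Its values were 55.1, 26.0, 52.0, 38.3 and 34.0 in wt_t and 24.0, 33.2, 8.88, 49.8 and 73.8 in Ts1Rhr. Each mutant group lay across the range of its controls, and the widest spread was among the wt_d hearts, where replicate 1 was high and replicate 5, the shallowest library, was low.

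Foxd3, which keeps crest cells undifferentiated, read 10.4, 0.761, 5.41, 0.748 and 0 in wt_d, 0.852, 2.35, 0.848, 11.6 and 2.80 in Dp3Tyb, 4.32, 1.08, 6.27, 5.74 and 5.66 in wt_t and 0, 2.93, 0, 8.59 and 12.4 in Ts1Rhr. The hearts high in Sox10, wt_d replicate 1, Dp3Tyb replicate 4 and Ts1Rhr replicate 5, were the highest of their groups here too. In wt_t the highest hearts differed, replicate 1 for Sox10 (55.1) and replicate 3 for Foxd3 (6.27). A count of 0 reads allows up to 3 reads, a normalised read count of 8.81, 3.59 and 2.66 in wt_d replicate 5, Ts1Rhr replicate 1 and Ts1Rhr replicate 3, counting error only.

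Fabp7, of Schwann cell precursors, read 33.6, 6.85, 17.8, 12.7 and 5.87 in wt_d, 11.9, 16.4, 19.5, 41.3 and 15.4 in Dp3Tyb, 25.9, 10.8, 17.0, 9.57 and 29.9 in wt_t and 5.99, 15.6, 9.77, 18.0 and 32.9 in Ts1Rhr. Ret, the GDNF family receptor of migrating crest and ganglion neurons, read 59.1, 16.0, 35.5, 11.2 and 14.7 in wt_d and 23.8, 14.9, 44.1, 73.8 and 37.8 in Dp3Tyb. Ret values were 28.1, 13.0, 34.0, 26.8 and 38.0 in wt_t and 9.58, 26.4, 7.99, 43.0 and 81.9 in Ts1Rhr. For both genes the same Dp3Tyb and Ts1Rhr hearts, replicates 4 and 5, were the highest of their groups, and mutant and WT hearts overlapped.

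**Figure D1:**
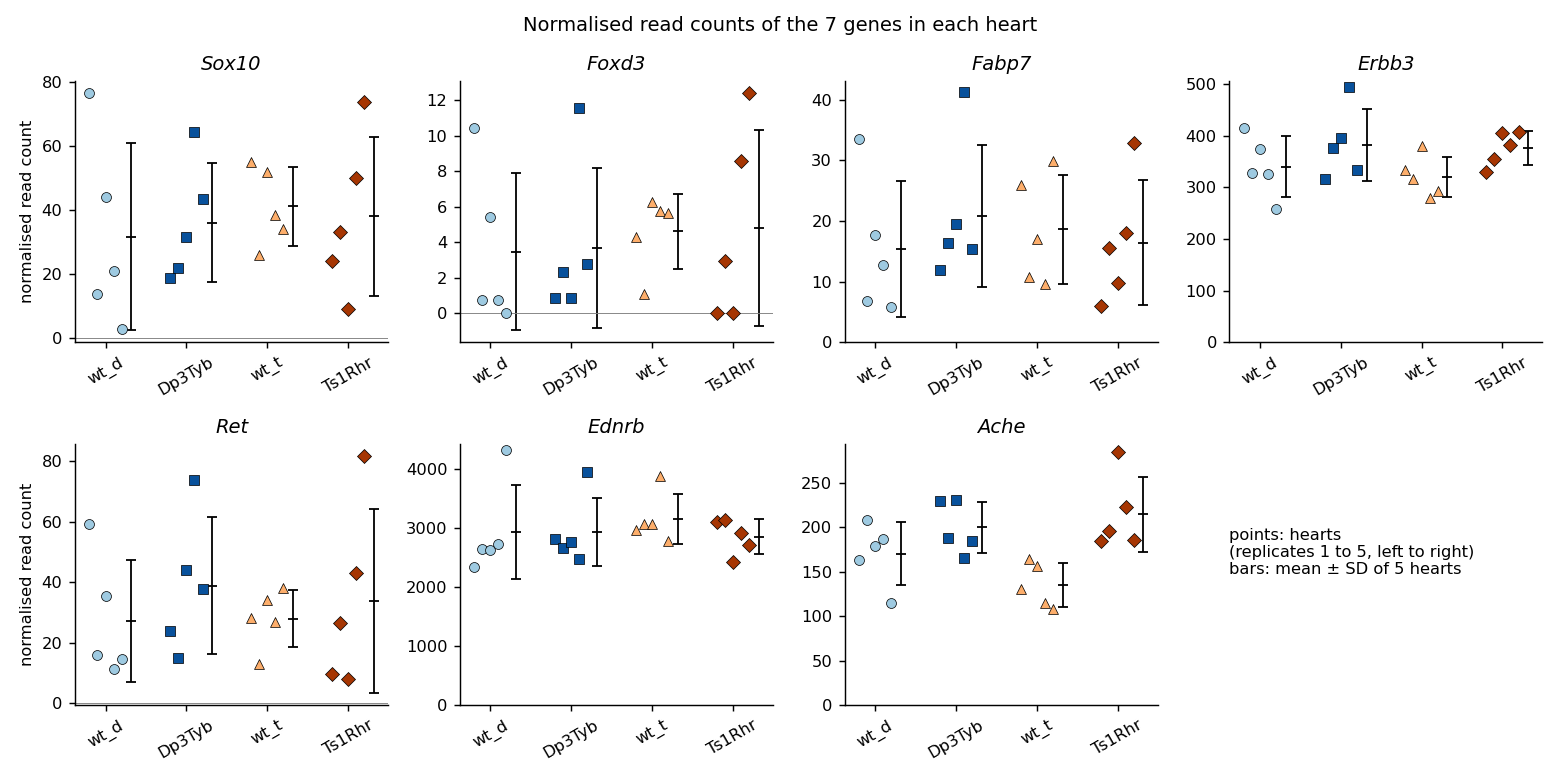
Normalised read counts (linear vertical axes) of the 7 genes in the 4 groups; points are hearts, replicates 1 to 5 from left to right, and bars are the mean ± SD of 5 hearts. Sox10, Foxd3, Fabp7 and Ret span most of their range within single groups, and only for Ache do the Ts1Rhr hearts (184 to 285) all lie above the wt_t hearts (108 to 164).

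The SD between hearts of a group, on the log2(value + 1) scale with group means removed, was 1.33 for Foxd3, 1.08 for Sox10, 0.98 for Ret and 0.80 for Fabp7, against a median of 0.22 over 15348 genes. Between 95.5% and 98.8% of those genes had a smaller SD than these 4. On the linear scale, by squared coefficients of variation, counting of reads alone would give 7.35% of the variance of Sox10, 6.54% of that of Ret, 15.2% of that of Fabp7 and 21.2% of that of Foxd3. The SD was 0.21 for Erbb3, 0.25 for Ednrb and 0.27 for Ache, which 46.3%, 55.3% and 60.0% of genes fell below. Without the 7 libraries high in mitochondrial reads the SD of Sox10 was 1.06 and that of Ednrb 0.10, while the median over all genes fell to 0.13. In those 13 libraries 69.7% of genes fell below Erbb3, 36.4% below Ednrb and 76.0% below Ache.

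The 4 variable genes rose and fell in the same hearts. Over 20 hearts, with group means removed, Pearson's r on log2(value + 1) was 0.90 between Foxd3 and Ret, 0.85 between Sox10 and Foxd3, 0.84 between Fabp7 and Foxd3, 0.81 between Fabp7 and Ret, and 0.78 both between Sox10 and Fabp7 and between Sox10 and Ret. Over the 15 hearts of the upper lung and foregut range these 6 pairs lay between 0.69 and 0.85. Erbb3 went part of the way with them, with r from 0.51 to 0.71. Ednrb was negatively related to Erbb3 (r = -0.73) and to Fabp7 (-0.56), with -0.46 and -0.40 in the 13 hearts low in mitochondrial reads. Ache was related to none of the 4 beyond -0.29 over 20 hearts, but over the 13 hearts low in mitochondrial reads its r was -0.84 with Fabp7 and -0.78 with Foxd3. These values are descriptions, because the genes share libraries, depth and normalisation.

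**Figure D2:**
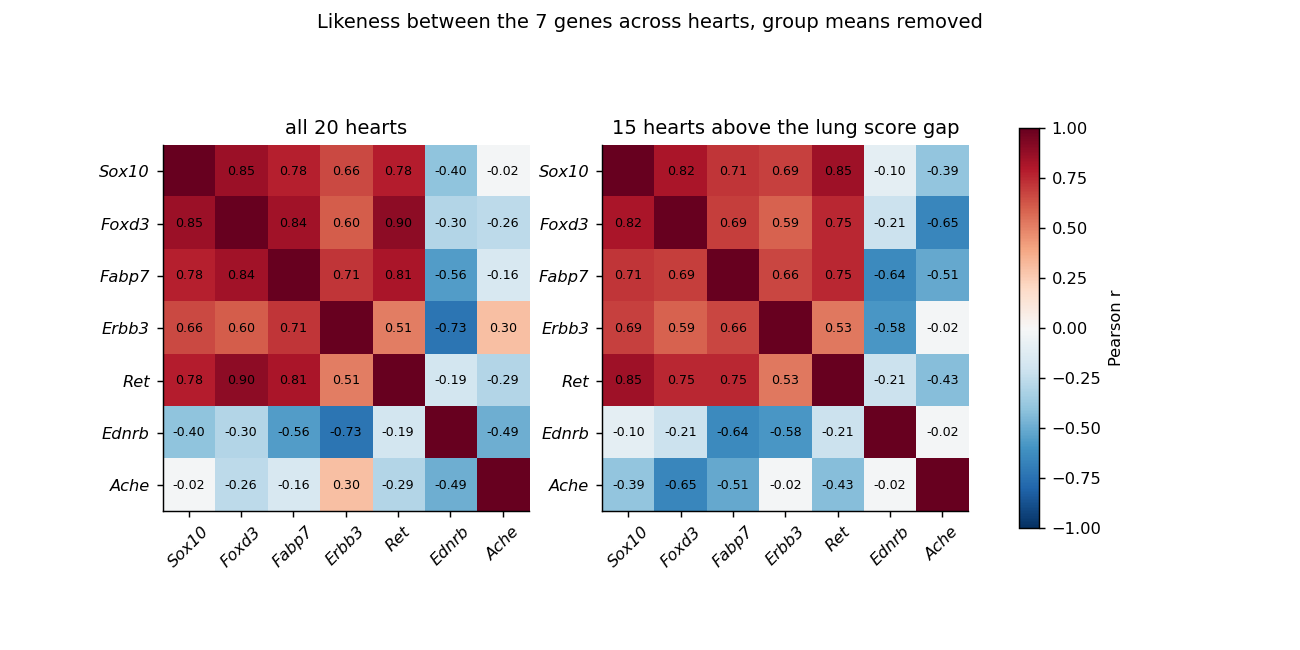
Pearson's r between each pair of the 7 genes across hearts, on log2(value + 1) with group means removed, over all 20 hearts (left) and over the 15 hearts of the upper lung and foregut range (right); red is positive, blue negative. Sox10, Foxd3, Fabp7 and Ret form a block of r between 0.78 and 0.90 on the left and between 0.69 and 0.85 on the right, with Ednrb and Ache outside it.

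Among the other genes past the filter, those whose pattern over the 20 hearts was most like Sox10 were Sox2 (r = 0.96), a gene of both the glial and the lung and foregut lists, Gpr17 (0.95), Eps8l2 (0.94), Hpse2 (0.93) and Wasf3 (0.92). For Ret they were Nefl, a neurofilament gene (0.94), Pde5a (0.93), Rtl1 (0.93), Lrrc17 (0.93) and Cxcl14 (0.92), and for Fabp7 they were Dlk1 (0.93), Plekha4 (0.92), Col3a1 (0.92), Bin1 (0.91) and Aatk (0.91). Of 21 other autonomic neuron genes, r was over 0.5 for 14 with Ret, 13 with Sox10, 13 with Foxd3 and 11 with Fabp7, but for 1 with Ache. Of 13 other Schwann cell precursor and glial genes it was over 0.5 for 7 with each of Sox10, Foxd3, Fabp7 and Ret and for 9 with Erbb3. The neuron genes ranged widely, with r from -0.44 to 0.94 for Ret and from -0.52 to 0.86 for Sox10. The share of all tested genes with r over 0.5 was not taken, so these counts have no background to be read against. Erbb3 was most like Srsf9 (0.85), Mta2 (0.85), Lrp3 (0.85), Tmem231 (0.84) and Bin1 (0.83), none of which is in those lists.

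The markers of lung and foregut epithelium moved with the same genes. Of the 12 past the filter, r was over 0.5 for 11 with each of Sox10, Foxd3, Fabp7 and Ret, for 7 with Erbb3 and for none with Ednrb or Ache. Here too the share of all genes was not taken. The 10 cardiomyocyte markers mostly went the other way, with a median r of -0.56 with Sox10, -0.60 with Foxd3, -0.74 with Fabp7, -0.56 with Ret and -0.71 with Erbb3. For Erbb3, r with these markers ran from -0.80 to 0.27. In the 5 hearts with the lowest score Foxd3 read 0 to 0.761, Ret 7.99 to 16.0, Fabp7 5.87 to 12.7 and Sox10 2.94 to 24.0. In the other 15 hearts the ranges were 0.848 to 12.4 for Foxd3, 13.0 to 81.9 for Ret, 9.57 to 41.3 for Fabp7 and 18.7 to 76.5 for Sox10, so those of Ret, Fabp7 and Sox10 overlapped. Foxd3 had 0 or 1 read in the 5 hearts and 1 to 17 reads in the other 15. The epithelial marker Epcam was between 2.28 and 20.6 in those 5 hearts and Nkx2-1, a lung marker, between 0 and 1.2.

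Because the hearts fell into a lower and an upper range of the score, the relation was taken within the 15 hearts of the upper range. Group means were removed and permutations were within groups. The cut between the ranges was set with the scores seen, which the p-values do not allow for. Sox10 rose with the score (r = 0.85, permutation p = 0.00052, adjusted over 14 relations 0.00728; Spearman's rho = 0.87, permutation p = 0.00061, adjusted 0.00854), and r was 0.74 without the 2 hearts farthest from the median score. Foxd3 did so too (r = 0.86, permutation p = 0.0029, adjusted 0.0153; rho = 0.77, permutation p = 0.00547, adjusted 0.0383), with r = 0.73 without those 2 hearts. For Ret r was 0.74 (permutation p = 0.0101, adjusted 0.0354) and 0.67 without them, while rho was 0.70 (permutation p = 0.0140, adjusted 0.0654). Within cohorts r was 0.88 and 0.80 for Sox10, 0.88 and 0.83 for Foxd3 and 0.78 and 0.71 for Ret, in 7 Dp3Tyb and wt_d hearts and 8 Ts1Rhr and wt_t hearts respectively.

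The relation did not pass for Fabp7 (r = 0.65, permutation p = 0.0286, adjusted 0.0801; rho = 0.52, permutation p = 0.0785, adjusted 0.183) or Erbb3 (r = 0.67, permutation p = 0.0440, adjusted 0.103; rho = 0.55, permutation p = 0.0599, adjusted 0.168). It rested on the 2 farthest hearts in both, with r of 0.35 for Fabp7 and 0.17 for Erbb3 without them. In these genes it was also carried by the Dp3Tyb and wt_d hearts, with r of 0.95 and 0.94, against 0.27 and 0.10 in the Ts1Rhr and wt_t hearts. Ednrb (r = -0.18, permutation p = 0.593; rho = -0.25, permutation p = 0.422) and Ache (r = -0.57, permutation p = 0.0518, adjusted 0.104; rho = -0.47, permutation p = 0.119) showed no relation that passed. The part of adjoining tissue in the levels of the crest genes was not tested.

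**Figure D3:**
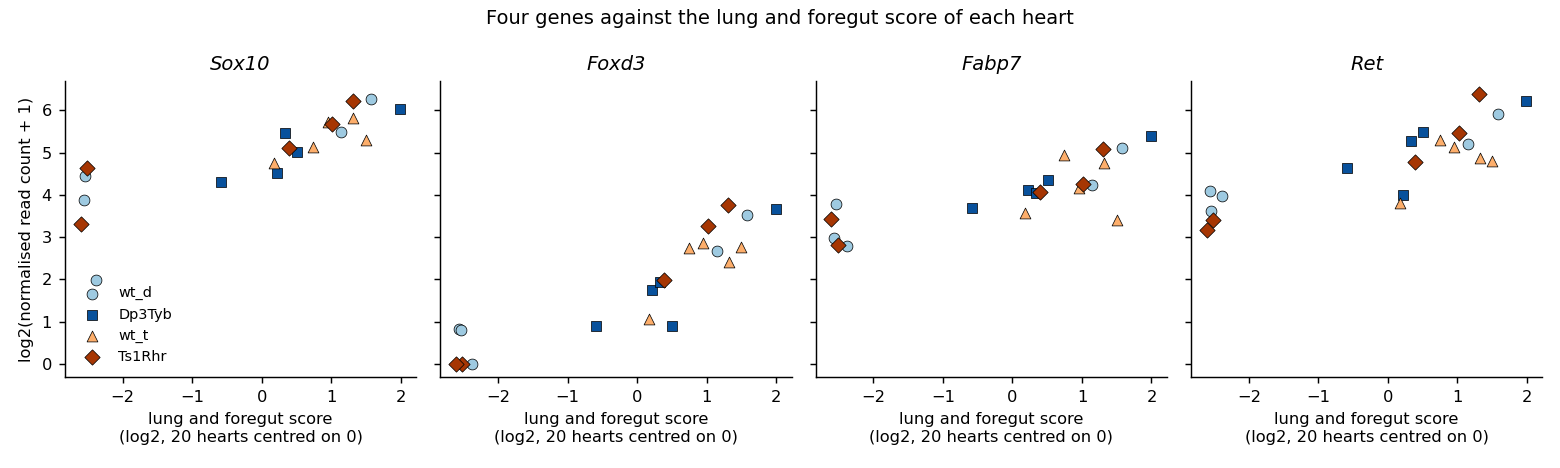
log2(normalised read count + 1) of Sox10, Foxd3, Fabp7 and Ret (vertical axes) against the lung and foregut score of the same heart (horizontal axes, log2 units centred on the 20 hearts); each point is a heart, coloured by group. The 5 hearts at scores below -2 have 0 or 1 read of Foxd3, and across the other 15 hearts Sox10 (r = 0.85) and Foxd3 (r = 0.86) rise with the score.

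Dp3Tyb hearts were compared with wt_d hearts to ask whether the duplication that comes with heart defects goes with a change in crest transcripts. None of the 6 members that passed the filter was called: all 6 fitted differences were above 0, and none exceeded the spread between hearts. Sox10 had a log2 fold change of 0.65 ± 0.69 (SE, 1.57-fold; adjusted p = 1.0 by limma), with means of 36.0 ± 18.6 in Dp3Tyb and 31.6 ± 29.3 in wt_d (SD, n = 5 each). That value rested on wt_d replicate 5, with 1 Sox10 read: without it the log2 fold change was 0.042, against 0.41 without Dp3Tyb replicate 4 and 1.12 without wt_d replicate 1, and with all hearts it was 0.16 by DESeq2 and 0.12 by edgeR. Ret differed by 0.57 ± 0.50 and Fabp7 by 0.55 ± 0.47 on the log2 scale of limma. Erbb3 differed by 0.17 ± 0.15, Ache by 0.24 ± 0.16 and Ednrb by 0.01 ± 0.17, all with an adjusted p of 1.0 by limma. Single hearts moved these values: without Dp3Tyb replicate 4 the log2 fold change was 0.29 for Ret, 0.28 for Fabp7 and 0.072 for Erbb3, and without wt_d replicate 1 it was 0.91 for Ret and 0.88 for Fabp7. Without wt_d replicate 5 it was 0.30 for Fabp7, 0.074 for Erbb3 and 0.11 for Ache.

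Across all features limma called 8 of 14763 genes in this comparison (0.0542%), and 413 (2.80%) had an unadjusted p under 0.05, of which 0 were members. DESeq2 on the recovered reads called 34 of 13589 genes (0.250%) and edgeR 9 (0.0610%), again with 0 members, though DESeq2 gave no adjusted p for Fabp7. The Dp3Tyb and wt_d hearts overlapped for all 7 genes, where 74 of 14763 genes (0.501%) were higher in every Dp3Tyb heart and 70 (0.474%) lower. Foxd3 was under the filter, and its mean log2 difference was 0.26 (exact permutation p = 0.690, two-sided, over all splits of the 10 hearts, for which the smallest possible p is 0.00794). The median log2 fold change of the 6 tested members was 0.40, against 0.00 for all 14763 genes, and 0.14 without wt_d replicate 5.

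The lung and foregut markers differed in the same direction as the members. All 12 that were tested were higher in Dp3Tyb than in wt_d (median log2 fold change 1.89, 0 past the threshold). Summed levels, largely Bmp4 in the lowest hearts, ran from 400 to 1171 in wt_d and 639 to 1410 in Dp3Tyb. None of the 13 was at 0 throughout a group. The hearts in the lower range of the score were all wt_d here (replicates 2, 4 and 5), so a score term cannot fully separate score from strain. With the score as a term in the fit, the log2 fold change was -0.26 for Sox10, -0.13 for Ret, -0.09 for Fabp7 and -0.01 for Erbb3. Without the libraries high in mitochondrial reads it was -0.06 for Sox10. The sign of these differences thus depended on the setting.

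Ts1Rhr hearts were compared with wt_t hearts to ask the same of the shorter duplication. Ache was higher in every Ts1Rhr heart than in every wt_t heart, and the other members overlapped between groups. Ache read 184, 195, 285, 223 and 186 normalised read counts in Ts1Rhr replicates 1 to 5 and 131, 164, 156, 115 and 108 in wt_t. The lowest Ts1Rhr heart lay above the highest wt_t heart, and Ts1Rhr replicate 3 was the highest of all 20 hearts. The means were 215 ± 42.3 and 135 ± 24.7 (SD, n = 5 each), which gave 0.67 ± 0.15 as the log2 fold change with its SE (1.59-fold).

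Of the members, limma called 0 of 6 in Ts1Rhr, where 4 of 14867 genes (0.0269%) were called, and edgeR likewise called 0 members and 4 genes (0.0269%). For Ache the adjusted p was 0.511 by limma and 0.543 by edgeR. DESeq2 called it (adjusted p = 0.0474), as 1 of 25 genes of 14865 (0.168%). At an unadjusted limma p under 0.05 there were 2 members, Ache and Erbb3, among 821 genes (5.52%). Groups that did not overlap were found for 92 of 14867 genes in the direction of Ache (0.619%) and for 74 in the other (0.498%). The log2 fold change of Ache stayed between 0.55 and 0.81 over 13 other settings, with adjusted p from 0.0474 to 0.996.

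In the other strain Ache read 230, 188, 231, 166 and 185 in Dp3Tyb and 163, 209, 179, 186 and 115 in wt_d, which overlapped. The wt_t hearts were thus the lowest group, with a mean of 135 against 170 in wt_d. The difference between strains in the effect on Ache was -0.42 ± 0.23 (Dp3Tyb minus Ts1Rhr, log2 ± SE, adjusted p = 1.0 by limma). Among 10 other cholinergic genes 6 were tested in Ts1Rhr, 3 had a log2 fold change above 0 and 0 passed. Ache is also made by red cell precursors, and all 9 erythroid markers had a log2 fold change above 0 in Ts1Rhr (median 0.26, 0 past the threshold), with summed levels of 67514 to 245352 in wt_t and 117254 to 185281 in Ts1Rhr and none at 0. Across the 20 hearts r between Ache and these markers had a median of 0.25. Of 8 endothelial markers 7 had a log2 fold change above 0 in Ts1Rhr (median 0.12, 0 past the threshold), with summed levels of 14799 to 16115 in wt_t and 15904 to 17005 in Ts1Rhr, none at 0, and a median r with Ache of 0.42. The part of either marker list in the result was not tested. The genes most like Ache were Efr3b (r = 0.94), Kat2a (0.91), Uba1 (0.90), Rexo1 (0.90) and Rasl10b (0.89).

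Erbb3, the neuregulin receptor, read 331, 355, 406, 382 and 408 in Ts1Rhr and 334, 316, 380, 279 and 294 in wt_t. Most Ts1Rhr hearts were above most wt_t hearts, with overlap between 331 and 380. The log2 fold change was 0.24 ± 0.10 (SE, 1.18-fold; adjusted p = 0.795 by limma). In the other strain Erbb3 read 316, 376, 395, 494 and 333 in Dp3Tyb and 415, 328, 375, 326 and 258 in wt_d, again with overlap. Of 7 other neuregulin and ERBB genes 6 were tested in Ts1Rhr and 0 passed, with 2 above 0 and a median log2 fold change of -0.10.

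The remaining members gave differences in Ts1Rhr within the spread between hearts: -0.36 ± 0.45 for Sox10, -0.24 ± 0.44 for Fabp7, -0.14 ± 0.55 for Ret and -0.14 ± 0.10 for Ednrb (log2 ± SE, adjusted p from 0.795 to 0.945 by limma). For Ret the sign depended on the tool, since DESeq2 gave 0.28 and edgeR 0.29. Signs also turned with single hearts: without Ts1Rhr replicate 3 Sox10 was at 0.064 and Ret at 0.23, and without Ts1Rhr replicate 1 Fabp7 was at 0.036 and Ret at 0.17. Without Ts1Rhr replicate 5 Sox10, Fabp7 and Ret were at -0.67, -0.53 and -0.58, and without wt_t replicate 4 Ednrb was at -0.062. Foxd3 had a mean log2 difference of -0.57 (exact permutation p = 0.508, two-sided), although its mean was 4.79 ± 5.52 in Ts1Rhr and 4.62 ± 2.10 in wt_t (SD, n = 5 each). For Foxd3, leaving out a heart gave -1.055 to -0.12, and other pseudocounts gave -0.86 and -0.13. All 12 tested lung and foregut markers were lower in Ts1Rhr than in wt_t (median log2 fold change -1.70, 0 past the threshold). Summed levels, largely Bmp4 in the lowest hearts, ran from 748 to 1300 in wt_t and 393 to 1120 in Ts1Rhr. The hearts in the lower range of the score were all Ts1Rhr here (replicates 1 and 3), so a score term cannot fully separate score from strain. With the score in the fit the log2 fold change was 0.38 for Sox10, 0.30 for Fabp7 and 0.82 for Ret (for Ret adjusted p = 0.972 by limma).

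**Figure D4:**
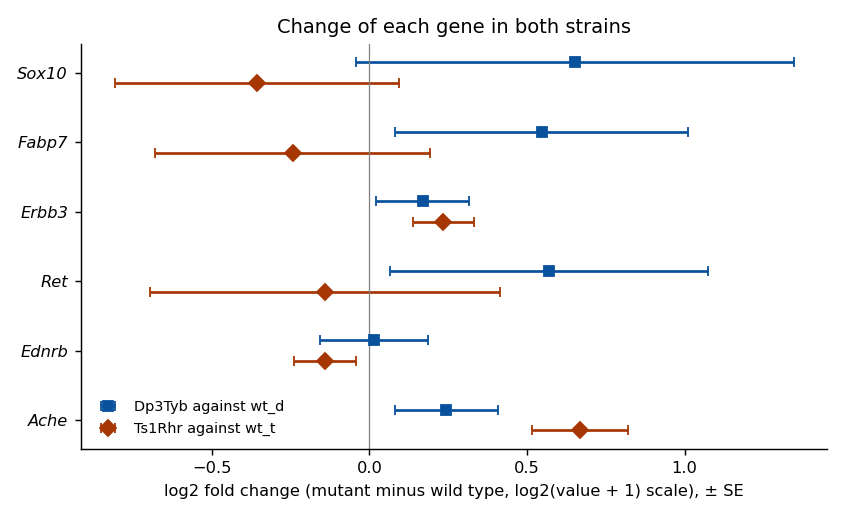
log2 fold change of the 6 tested genes in Dp3Tyb against wt_d (blue squares) and Ts1Rhr against wt_t (red diamonds), on the log2(value + 1) scale with bars of ± 1 SE. Ache in Ts1Rhr (0.67 ± 0.15) lies farthest from 0 relative to its error, and the bars of Sox10, Fabp7 and Ret are wide in both strains.

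The test of the difference between strains called 0 of 6 members, where limma called 2 of 15348 genes (0.0130%), 234 (1.52%) had an unadjusted p under 0.05, DESeq2 called 3 of 15347 (0.0195%) and edgeR 2 (0.0130%), with 0 members in each. The estimates were 1.01 ± 0.88 for Sox10, 0.79 ± 0.67 for Fabp7, 0.71 ± 0.81 for Ret, 0.15 ± 0.21 for Ednrb and -0.07 ± 0.18 for Erbb3 (Dp3Tyb minus Ts1Rhr, log2 ± SE, adjusted p = 1.0 by limma). DESeq2 and edgeR gave 0.27 and 0.21 for Sox10 and 0.23 and 0.21 for Ret, and without wt_d replicate 5 the estimate for Sox10 was 0.40. Without Ts1Rhr replicate 3 it was 0.59 for Sox10 and 0.34 for Ret. Over all hearts left out in turn, it ran from 0.40 to 1.47 for Sox10 and from 0.34 to 1.15 for Ret. For Fabp7 it ran from 0.51 to 1.125 and for Ednrb from 0.042 to 0.30. With the lung and foregut score in the fit the estimates for Sox10, Fabp7 and Ret were -0.67, -0.40 and -0.90, with score and strain again not fully separated.

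The other genes of the members' pathways were counted in the same fits, without the members themselves, and 0 passed in either strain by limma, edgeR or DESeq2. At an unadjusted limma p under 0.05 there were 1 of 9 tested crest factors, 1 of 19 neuron genes and 1 of 5 melanocyte genes in Dp3Tyb (2.80% of all genes), and 1 of 13 glial genes and 3 of 6 cholinergic genes in Ts1Rhr (5.52% of all genes). In Dp3Tyb 9 of 12 crest specification factors were tested (6 above 0, median log2 fold change 0.12), 12 of 16 Schwann cell precursor and glial genes (9 above 0, median 0.17) and 19 of 22 autonomic neuron genes (15 above 0, median 0.21). In Ts1Rhr 9 crest factors (6 above 0, median 0.04), 13 glial genes (7 above 0, median 0.14) and 19 neuron genes (7 above 0, median -0.12) were tested. Of 8 other GDNF family receptors and ligands 6 were tested in Dp3Tyb (4 above 0, median 0.27) and 5 in Ts1Rhr (3 above 0, median 0.29). Of 6 other endothelin pathway genes 5 were tested in each strain, with medians of 0.04 and 0.04, and of 7 melanocyte genes, another crest lineage, 5 were tested in Dp3Tyb and 4 in Ts1Rhr, with medians of 0.17 and 0.12.

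Ednrb, the endothelin receptor of crest cells that is also expressed by endothelial cells, was highest in the libraries with the highest mitochondrial share and passed in neither strain. It read 2331, 2639.7, 2628, 2731 and 4313 in wt_d, 2812, 2651, 2756, 2475 and 3945 in Dp3Tyb, 2962, 3070.4, 3063, 3876 and 2770.3 in wt_t and 3102, 3123, 2419.9, 2903 and 2707 in Ts1Rhr. The 3 highest hearts, wt_d replicate 5, Dp3Tyb replicate 5 and wt_t replicate 4, were the 3 with the highest mitochondrial share (19.5%, 15.5% and 17.2%). Ednrb lay between 2962 and 4313 in the 7 libraries at or above 10.5% and between 2331 and 3063 in the other 13, which overlapped narrowly.

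Within those 13 libraries, at 4.85% to 7.17%, Ednrb still rose with the share (r = 0.80, permutation p = 0.00327, adjusted over 14 relations 0.0153), and r was 0.80 without the 2 libraries farthest from the median. Spearman's rho was 0.68 (permutation p = 0.0291, adjusted 0.102). Within the 8 Dp3Tyb and wt_d hearts of that range r was 0.82, and none was taken over the 5 Ts1Rhr and wt_t hearts, fewer than the minimum set for a correlation. For the other 6 members r with the share in the 13 libraries lay between -0.46 and 0.54, and none passed (adjusted p from 0.206 to 0.923). Within the 8 Dp3Tyb and wt_d hearts, however, r was 0.78 for Ache, -0.80 for Foxd3, -0.74 for Fabp7, -0.69 for Sox10, -0.66 for Erbb3 and -0.59 for Ret, so a relation with the share was not particular to Ednrb there. The genes most like Ednrb over 20 hearts were Rab14 (r = 0.97), Rabgap1l (0.96), Zeb1 (0.96), Bche (0.96) and Fxr1 (0.96), and r was over 0.5 for 8 of 10 cardiomyocyte markers. The share of all genes with r over 0.5 was not taken. With the 8 endothelial markers r ran from -0.88 to 0.91, with a median of -0.07. Whether RNA quality, depth or the makeup of the hearts lies behind the share was not tested.

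**Figure D5:**
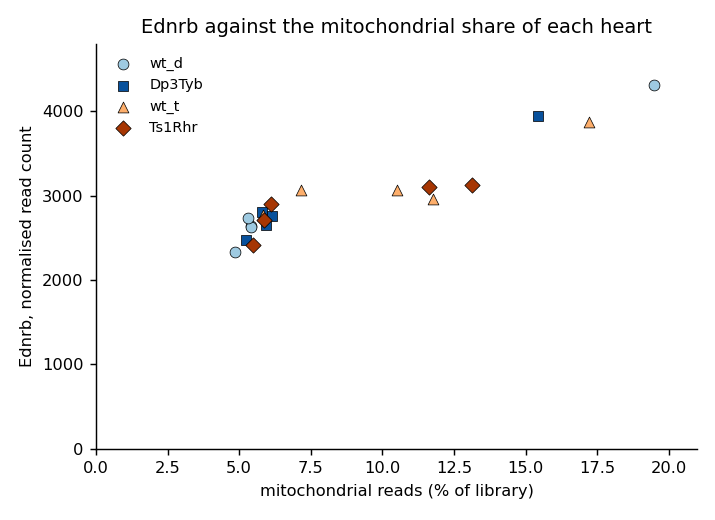
Normalised read count of Ednrb (vertical axis) against the percentage of mitochondrial reads in the library (horizontal axis); each point is a heart, coloured by group. The 3 hearts at 15.5% or more read 3876 to 4313, above all others, and the groups are mixed along the trend.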

How the data were processed

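Hearts were snap frozen, and poly(A) libraries (KAPA mRNA HyperPrep) were sequenced on an Illumina HiSeq. Per the submitters' processing notes, Trimmomatic 0.36, STAR 2.5.2a, RSEM 1.2.31 and DESeq2 were used with build GRCm38. The annotation and strand setting are not given in the sources used here. The deposited table holds a signal, gene read counts divided by a size factor per library, and 100% of the values were whole multiples of a single read (tolerance 0.001), from which reads were recovered. Identifiers were matched to symbols (91.3% of 48795) and exon lengths with GENCODE annotation of a later build. Sequences and positions are from RefSeq (GRCm38.p6). Genes with a value of at least 10 in 5 of the fitted libraries were tested with limma 3.58.1 (trend, robust) on log2(value + 1), where the pseudocount damps changes of low genes but hearts near 0 weigh more than in count models, with p-values adjusted by Benjamini-Hochberg and called under 0.05. DESeq2 1.42.0 and edgeR 4.0.16 on recovered reads, other filters, pseudocounts, weights and terms, and leaving out hearts were alternatives. Foxd3, under the filter, was tested by exact permutation. The limma script was tested on simulated data. Relations used 100000 permutations in Python 3. Members and gene lists were chosen with earlier results of these data known. All 7 members were named, with their partners' levels and the 5 most alike genes. Levels of some listed genes are not reported here. The labels number no replicates, so numbers follow the listing, and do not say which embryos share a litter, so p-values measure the spread between these hearts.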

Additional observations from a re-analysis of the deposited data

Results flagged for a closer look

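In 5 of the 28 sets of 5 hearts (7 genes in 4 groups), the highest heart lay apart from the rest by more than 0.710 of the whole range, Dixon's 95% limit, which chance alone exceeds in a small share of sets. Ednrb read 4313 in wt_d replicate 5, 3945 in Dp3Tyb replicate 5 and 3876 in wt_t replicate 4, with gaps of 0.798, 0.771 and 0.729 of the range. These are the 3 libraries with the highest mitochondrial share. Fabp7 read 41.3 and Foxd3 read 11.6 in Dp3Tyb replicate 4, with gaps of 0.742 and 0.818 of the range. That heart had the highest lung and foregut score of the 20 (1.99) and was also the highest of its group for Sox10, Erbb3 and Ret. No cause was tested.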

How the results depend on the processing

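No paired analysis was run, because the labels do not say which embryos share a litter. Over the alternatives run, no member passed limma or edgeR in any comparison, and Ache in Ts1Rhr by DESeq2 was the only call by any tool. Genes called in Dp3Tyb numbered 8, against 4 with no filter, 34 with DESeq2, 57 with array weights, 45 with the mitochondrial share as a term, 1 with the lung and foregut score as a term, 30 without libraries over 10% mitochondrial reads, 17 with all 20 libraries in 1 fit and 2 to 13 leaving out a heart (13 without wt_d replicate 5, 2 without wt_d replicate 1, 2 or 3 or Dp3Tyb replicate 1, 3 or 4). Genes called in Ts1Rhr numbered 4, against 25 with DESeq2, 16 with array weights, 25 with the mitochondrial term, 0 with the lung and foregut term, 0 without libraries over 10%, 11 with all 20, 0 with only the Ts1Rhr hearts described without defects and 1 to 6 leaving out a heart. For the difference between strains there were 2, against 0 with no filter, 0 with TMM, 0 with the lung and foregut term and 0 to 3 leaving out a heart. The following log2 fold changes turned sign. In Dp3Tyb, the lung and foregut term gave -0.26 for Sox10, -0.0098 for Erbb3, -0.090 for Fabp7 and -0.13 for Ret, leaving out libraries over 10% gave -0.059 for Sox10, DESeq2 gave -4.8e-05 for Ednrb, and leaving out a heart gave -0.10 to 0.16 for Ednrb and -0.20 to 0.74 for Foxd3. In Ts1Rhr, the lung and foregut term gave 0.38, 0.30 and 0.82 for Sox10, Fabp7 and Ret, array weights gave 0.084, 0.057 and 0.58, and the hearts described without defects gave 0.086 for Fabp7 and 0.22 for Ret. For Ret edgeR gave 0.29 and DESeq2 0.28. Leaving out a heart gave -0.67 to 0.064 for Sox10, -0.53 to 0.036 for Fabp7 and -0.58 to 0.23 for Ret. For the difference between strains, the lung and foregut term gave -0.67, -0.40 and -0.90 for Sox10, Fabp7 and Ret, array weights gave -0.15 for Ret, and leaving out a heart gave -0.16 to 0.0092 for Erbb3. The cause was not tested. Relations between genes over the 15 hearts of the upper lung and foregut range were added, and that range was cut, after the data were seen. Foxd3, at 0 to 17 reads a library, could only have shown large changes.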
